A study of Mus musculus with 36 samples.

Results

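Halofuginone with thapsigargin was compared with BtdCPU with thapsigargin across all genes in wild-type mouse embryonic fibroblasts, a cell type grown from mouse embryos. The comparison uses 6 of the 36 bulk RNA-seq libraries of the study, taken by their labels, 3 with each compound, and 16065 of 36856 gene symbols had enough counts to be tested. The labels name 2 genotypes, PERK WT and cells without PERK (written Perk-null), and 6 treatments: DMSO, thapsigargin (Tg), each compound alone, and each compound with Tg. Every group used here is a line labelled MEF, and both compared groups are PERK WT and received Tg, so Tg is shared and only the compound differs. The labels give no dose, treatment time or batch, do not say whether a genotype is 1 clone, and do not say whether replicates were separate cultures. The compounds therefore cannot be set against each other at known matched doses or times, and p-values measure the spread between these libraries, which may be technical.

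The integrated stress response (ISR) starts when a kinase phosphorylates the translation factor eIF2 alpha, which slows protein synthesis while ATF4 is translated and turns on genes of amino acid supply and stress adaptation. Tg empties the endoplasmic reticulum (ER) of calcium by blocking its pump, and PERK is the ER-resident kinase that responds. BtdCPU activates the heme-regulated kinase HRI, and halofuginone inhibits the prolyl activity of the tRNA synthetase EPRS, which engages GCN2, the kinase that senses uncharged tRNA. The comparison asks what differs in cells that receive activators of different eIF2 alpha kinases on top of the same ER stress.

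In the 6 libraries, totals ran from 36232262 to 37016160 counts, and 14038 to 14499 genes had at least 10 counts. The first principal component of log2 CPM (counts scaled by TMM-adjusted library size) held 50.6% of the variance and separated the compounds, while the second held 19.7% and set the third library of each compound apart from the other two. Fibroblast markers summed to 18080 to 25350 CPM with halofuginone + Tg and 15140 to 19260 with BtdCPU + Tg. Epithelial markers summed to 8.20 to 11.0 against 1.64 to 3.85 CPM, neural markers to 109 to 123 against 193 to 233 CPM, blood cell markers to 15.1 to 27.2 against 16.3 to 21.8 CPM, and skeletal muscle, endothelial and pluripotent markers to less than 3 CPM in every library. Sox10, Dcx, Lyz2, Tie1, Emcn, Myod1, Des, Myh3, Pou5f1, Zfp42 and Dppa5a had 3 counts or fewer in all 6 libraries. Of 4 tested members each of the epithelial, endothelial, blood cell and neural lists, 2 epithelial markers (Krt8 at a log2 difference of 2.57 and Krt18 at 2.59) and 1 endothelial marker were called higher with halofuginone + Tg, and 2 blood cell markers and 1 neural marker, the tubulin gene Tubb3 (-2.01), lower. The neural list had a median of 0.26, so its lower sum does not describe its other members. Over all tested genes, 17.1% were called higher and 16.4% lower. The part of other cell types in the results was not tested. In bulk libraries, fewer cells of a type and less RNA per cell cannot be told apart. Eif2ak3, the gene of PERK, averaged 32.1 ± 3.71 CPM (SD, n = 3) in Perk-null and 102 ± 9.43 CPM in wild-type cells with halofuginone + Tg, and the sources used here do not say which part of the gene is missing.

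The compounds separated many genes, in near-equal numbers in each direction. Of 16065 tested genes, 5382 (33.5%) were called, that is, had an adjusted p below 0.05 in edgeR's quasi-likelihood test with Benjamini-Hochberg adjustment. With halofuginone + Tg, 2752 genes (17.1%) were higher and 2630 (16.4%) lower than with BtdCPU + Tg, and the difference passed 2-fold for 757 of the higher and 541 of the lower. When libraries were scaled by their totals alone, 2234 of 5452 called genes (41.0%) were higher, against 51.1% with TMM. The groups did not overlap in CPM for 6514 genes (40.5%). Set against the Tg libraries that both comparisons share, halofuginone + Tg differed at 7276 genes (45.3%, with 22.8% higher and 22.5% lower) and BtdCPU + Tg at 372 (2.32%, with 1.29% higher and 1.02% lower). Calls of BtdCPU + Tg against Tg were unstable. Of 11 named genes called there, 2 were called in all alternative settings, and 22 others became called in some. For halofuginone + Tg against Tg, 60 of 73 were called in all, and 11 others became called in some.

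The promoters of 4 genes are shown because the genes behind them carry the pattern described below: Chac1 and Atf3 are ISR targets that were higher with halofuginone + Tg while Atf4 was not, and Lif and Dusp1 are among the signalling genes that were higher by the widest margin. The sequences are the 250 bases before the annotated start, 5′ to 3′ on the gene's strand, from RefSeq on GRCm38.p6. Capitals mark the ATF4-C/EBP composite element TGATGNAA in Chac1 and Atf3 (read on the other strand as TTNCATCA), an AP-1 site TGANTCA in Lif, and the cyclic AMP response element TGACGTCA in Dusp1.
Chac1 promoter, chr2:119350992-119351241, plus strand: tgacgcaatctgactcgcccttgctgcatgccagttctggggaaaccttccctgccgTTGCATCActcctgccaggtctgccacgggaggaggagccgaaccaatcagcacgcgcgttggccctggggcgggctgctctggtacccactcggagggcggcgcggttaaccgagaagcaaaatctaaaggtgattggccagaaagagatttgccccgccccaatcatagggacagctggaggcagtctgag
Atf3 promoter, chr1:191183334-191183583, minus strand: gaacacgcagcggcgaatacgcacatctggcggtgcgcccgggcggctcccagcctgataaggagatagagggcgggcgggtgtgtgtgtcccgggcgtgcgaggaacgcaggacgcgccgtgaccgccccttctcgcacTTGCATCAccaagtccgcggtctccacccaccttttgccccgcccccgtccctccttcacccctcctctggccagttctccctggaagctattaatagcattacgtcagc
Lif promoter, chr11:4257318-4257567, plus strand: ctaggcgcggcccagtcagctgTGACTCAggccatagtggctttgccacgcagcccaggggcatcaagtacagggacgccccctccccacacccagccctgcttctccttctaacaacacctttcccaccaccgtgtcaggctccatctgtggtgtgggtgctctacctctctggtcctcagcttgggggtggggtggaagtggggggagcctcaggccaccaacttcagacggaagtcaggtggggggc
Dusp1 promoter, chr17:26508473-26508722, minus strand: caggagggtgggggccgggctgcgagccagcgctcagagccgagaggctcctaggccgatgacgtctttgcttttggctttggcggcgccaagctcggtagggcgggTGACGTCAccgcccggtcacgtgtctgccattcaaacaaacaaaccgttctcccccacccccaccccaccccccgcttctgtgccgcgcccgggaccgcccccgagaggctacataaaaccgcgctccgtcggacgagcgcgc
The capitals begin 193 bases before the start in Chac1, 110 in Atf3, 228 in Lif and 143 in Dusp1. Searched on both strands in windows from 250 bases before to 50 bases after the start, TGATGNAA was present at 4.06% of 27025 genes with a promoter entry, TGANTCA at 7.93% and TGACGTCA at 1.88%; the AP-1 and cyclic AMP letters do not overlap each other. TGATGNAA was found at 4 of 13 promoters of the ISR transcription factor and feedback list, 5 of 12 of the tRNA synthetases and 3 of 13 of the amino acid synthesis enzymes. Among immediate early genes, TGACGTCA was found at 1 of 20 promoters and TGANTCA at 0 of 20. Among chemokines and cytokines, TGANTCA was found at 3 of 13 and TGACGTCA at 0 of 13. Most promoters of these lists thus lacked the sites marked in Lif and Dusp1. TGANTCA was found at 23.1% of the cytokine promoters beside 7.93% of all. For TGACGTCA the share was 5.0% of the immediate early promoters, from 1 gene, beside 1.88% of all. A match describes letters and is not evidence of binding.

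Among the core ISR genes Atf4 was modestly lower with halofuginone + Tg, and most others did not differ by a margin that passed the test. Atf4, the central transcription factor of the response, measured 992, 1050 and 865 CPM with halofuginone + Tg and 1291, 1293 and 1175 CPM with BtdCPU + Tg. Every halofuginone + Tg library was below every BtdCPU + Tg library, and both sets were above the DMSO libraries at 317 to 393 CPM. The log2 difference of Atf4 was -0.37 ± 0.11 (SE, n = 3 per group, edgeR adjusted p = 0.00724), and without the third halofuginone + Tg library it was -0.30 with adjusted p = 0.0633. Ddit3, which encodes the pro-apoptotic factor CHOP, differed by -0.26 (95% interval -0.67 to 0.15), and Mars and Mbd6 overlap it, so its counts can include their reads. Trib3, a pseudokinase that feeds back on ATF4, differed by -0.19 (-0.72 to 0.34). The asparagine synthetase gene Asns differed by 0.11 (-0.10 to 0.32) and the serine synthesis gene Psat1 by -0.03 (-0.26 to 0.19). None of these 4 passed the test.

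Chac1 and Atf3 departed from this. Chac1, whose product degrades glutathione, measured 237, 225 and 231 CPM with halofuginone + Tg and 122, 125 and 125 CPM with BtdCPU + Tg. The BtdCPU + Tg libraries lay within the range of Tg alone (117 to 128 CPM) and all halofuginone + Tg libraries lay above it, a log2 difference of 0.90 ± 0.20 (SE, edgeR adjusted p = 0.00057). Atf3, a stress-induced transcription factor, measured 176, 179 and 181 CPM against 90.5, 89.0 and 88.3 CPM, with 1.09 to 1.27 CPM in DMSO. The difference of Atf3 was 1.00 ± 0.19 (adjusted p = 9.17e-05). Its groups did not overlap, but as the largest rise of its list it was named only from members without overlap. Over all tested genes, 40.5% had groups without overlap. Of the 14 genes of the ISR transcription factor and feedback list, 4 were higher (Atf3, Chac1, Cebpg at 0.65 and Sesn2 at 0.33) and 1, Atf4, was lower, where 17.1% of all tested genes were higher and 16.4% lower. The list median was 0.05 beside 0.00 over all tested genes, and with the replicate number as a block 2 members were lower. Among 7 genes of secreted factors and receptors of the response, Gdf15, a stress cytokine, was higher by 1.63 ± 0.36 and Vegfa, the angiogenic growth factor, by 1.13 ± 0.14. Gdf15 measured 9.76, 11.2 and 5.98 CPM against 2.99, 3.30 and 2.37 CPM, and Vegfa 319, 289 and 255 against 132, 125 and 138 CPM. The other 5 members of that list were not called. Cebpg and Sesn2, like all members below that are named with a value alone, were chosen after their values were seen.

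**Figure D1:**
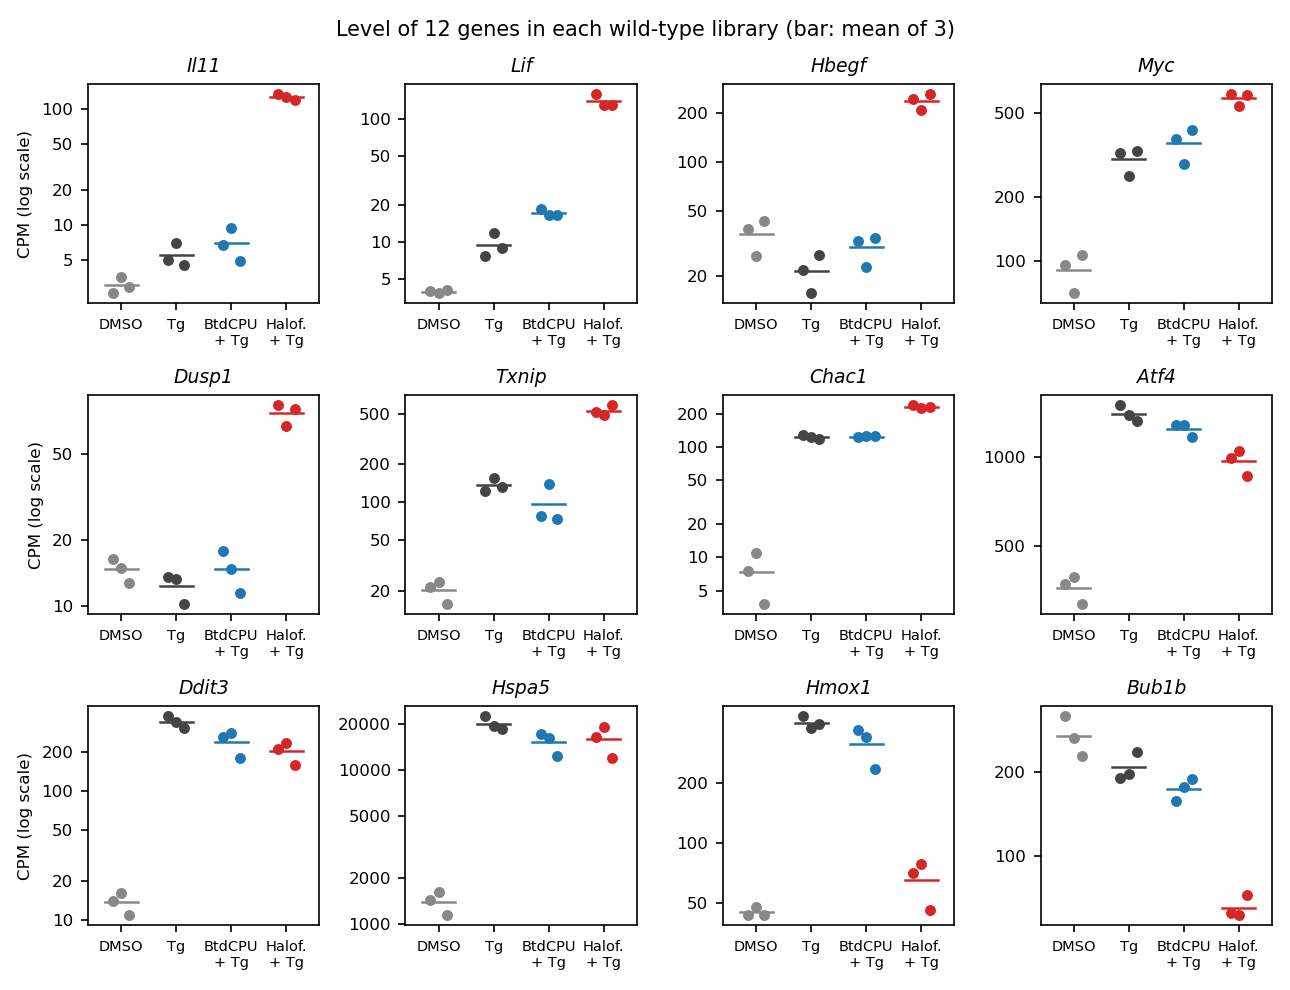
Level of 12 genes in each wild-type library, in CPM on a log scale, for DMSO, Tg, BtdCPU + Tg and halofuginone + Tg. Points are libraries and bars are means of 3. Il11, Lif, Hbegf, Myc, Dusp1, Txnip and Chac1 stand higher with halofuginone + Tg than in the other 3 groups, Ddit3 and Hspa5 overlap between the compounds, and Hmox1 with halofuginone + Tg (46.1 to 78.0 CPM) lies far below BtdCPU + Tg (234 to 368 CPM).

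The kinase genes themselves differed little. Eif2ak3 measured 91.7, 110 and 105 CPM with halofuginone + Tg and 74.9, 72.7 and 74.4 CPM with BtdCPU + Tg, a log2 difference of 0.47 ± 0.18 (edgeR adjusted p = 0.0389). That call was lost with scaling by library totals alone (0.39, adjusted p = 0.0941) and on leaving out halofuginone + Tg library 2 or 3 or any 1 of the BtdCPU + Tg libraries (adjusted p from 0.0807 to 0.113). Eif2ak1, the gene of HRI, differed by -0.12 (95% interval -0.31 to 0.07), Eif2ak2, the gene of PKR, by -0.17 (-0.52 to 0.18) and Eif2ak4, the gene of GCN2, by 0.03 (-0.23 to 0.29). Aimp2 and Ankrd61 overlap Eif2ak1.

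Aminoacyl-tRNA synthetases, the enzymes that charge tRNAs, were called about as often as other genes. Of 20 cytosolic members, 5 were higher with halofuginone + Tg and 2 lower, where 17.1% and 16.4% of all tested genes were, with a median of 0.11. The replicate block gave 8 and 2, and the higher count was 3 with library totals alone or without the second BtdCPU + Tg library, 2 with no filter on low counts and 1 with only the compared groups fitted. Eprs, the gene of halofuginone's own target, measured 1355, 1441 and 1292 CPM against 1225, 1096 and 1080 CPM. All halofuginone + Tg libraries were above all BtdCPU + Tg libraries, by 0.27 ± 0.10 (edgeR adjusted p = 0.0403). The call for Eprs was lost without halofuginone + Tg library 1 or 2 or BtdCPU + Tg library 2 or 3 (adjusted p from 0.077 to 0.146), and with library size alone (0.119). Rars, the arginyl enzyme, was the most raised at 0.52 ± 0.11, Aars, the alanyl enzyme and the highest in level, differed by 0.31 ± 0.09 (not called with no filter, adjusted p = 0.0646, or with only the compared groups fitted, 0.0687), and Qars, the glutaminyl enzyme, was the most lowered at -0.48 ± 0.08. Ddx19b overlaps Aars.

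Amino acid synthesis genes were called in the lower direction, and transporters in both, where 17.1% of all tested genes were higher and 16.4% lower. Of 17 synthesis enzymes, none was higher and 5 were lower, among them Cth, Phgdh and Bcat1, with a median of -0.30. Phgdh, the first enzyme of serine synthesis, measured 79.4, 84.9 and 74.0 CPM against 110.4, 97.4 and 89.8 CPM, a difference of -0.32 ± 0.10 (edgeR adjusted p = 0.0172). Its groups did not overlap, as for 40.5% of all tested genes. The count of 5 depended on single libraries: it was 1 without the third halofuginone + Tg library or the first BtdCPU + Tg library, 3 without the second BtdCPU + Tg library and 8 without the third, and 8 with the replicate block. Of 14 amino acid transporters, 2 were higher and 4 lower. Slc6a9, a glycine transporter, measured 108, 104 and 64.2 CPM against 217, 188 and 166 CPM (-1.04 ± 0.20), with 261 to 274 CPM under Tg alone, and Ccdc24 overlaps it. Slc3a2, the heavy chain shared by several amino acid exchangers and the list's highest member, measured 789, 894 and 845 CPM against 1354, 1259 and 1261 CPM (-0.62 ± 0.15). Slc1a5, a neutral amino acid transporter, was higher by 0.38 ± 0.13. Without the third halofuginone + Tg library or the first BtdCPU + Tg library, 2 transporters were lower, and without the third halofuginone + Tg or the third BtdCPU + Tg library none was higher.

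Called ER genes were all lower with halofuginone + Tg, and the main ER chaperone was not among them. Most listed ER genes were not called, and over all tested genes 17.1% were higher and 16.4% lower. Hspa5, the gene of the ER chaperone BiP, measured 16460, 19130 and 12030 CPM with halofuginone + Tg and 17260, 16190 and 12370 CPM with BtdCPU + Tg. The ranges overlapped, and both lay far above DMSO at 1143 to 1604 CPM; the difference was 0.06 (95% interval -0.23 to 0.34), and Rabepk overlaps the gene. Among 16 ER chaperones and folding enzymes, none was higher and 6 were lower, with a median of -0.16. The lower count was 3 without the third halofuginone + Tg library and 2 with only the compared groups fitted. Pdia4, a disulfide isomerase, measured 967, 1042 and 588 CPM against 1540, 1456 and 1260 CPM (-0.71 ± 0.14), and Creld1 was the most lowered at -1.47 ± 0.41 but stayed below 2 CPM in all 6 libraries and was not called without the third halofuginone + Tg library (-1.16, adjusted p = 0.0511). The ER stress response element (both strands) was found at 7 of 13 promoters of this list and at 0.13% of all promoters. Of 20 ER export, translocon and degradation genes, none was higher and 7 were lower, with a median of -0.23; the replicate block gave 1 and 11, and 3 and 2 were lower without the third halofuginone + Tg and the first BtdCPU + Tg library. Wfs1, an ER membrane protein, was lower by 0.87 on the log2 scale (39.2, 38.6 and 26.8 CPM against 71.9, 61.8 and 57.0 CPM). Dnajb9, an ER co-chaperone, differed by -0.27 (-0.57 to 0.03) and was called only without the second halofuginone + Tg library (-0.42, adjusted p = 0.0442).

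**Figure D2:**
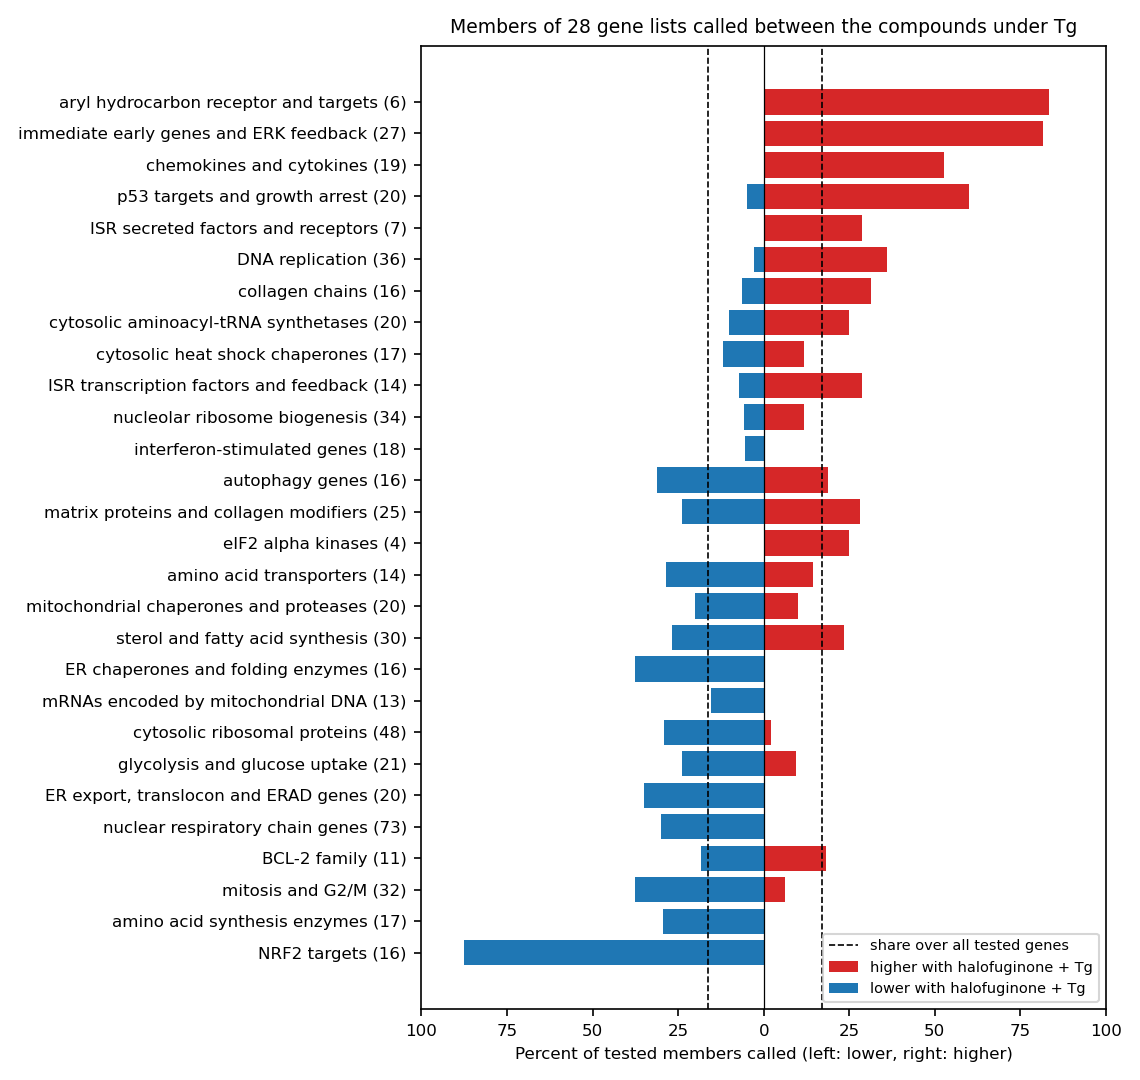
Percent of the tested members of 28 gene lists that were called lower (left, blue) or higher (right, red) with halofuginone + Tg than with BtdCPU + Tg in wild-type cells, ordered by list median, with the number tested in brackets. Dashed lines mark 17.1% higher and 16.4% lower over all tested genes. The lists were written with earlier results of these data known. Immediate early genes (22 of 27 higher) and NRF2 targets (14 of 16 lower) reach farthest from those lines among lists of more than 10 genes.

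Cytokine and growth factor genes held some of the widest differences. Il11, which encodes an interleukin of the IL-6 family, measured 133, 125 and 118 CPM with halofuginone + Tg and 6.73, 9.38 and 4.93 CPM with BtdCPU + Tg. The BtdCPU + Tg libraries overlapped Tg alone (4.50 to 6.97 CPM), and the halofuginone + Tg libraries were 17.9-fold above BtdCPU + Tg, a log2 difference of 4.16 ± 0.21 (edgeR adjusted p = 2.66e-15); Tmem190 overlaps Il11. Lif, a cytokine of the same family, measured 157, 129 and 128 CPM against 18.4, 16.7 and 16.7 CPM. BtdCPU + Tg was itself above Tg alone for Lif (7.80 to 11.8 CPM, log2 difference 0.86, a call lost when only the compared groups were fitted), and halofuginone + Tg stood 3.00 ± 0.15 above BtdCPU + Tg (adjusted p = 1.27e-15). Hbegf, a ligand of the EGF receptor, measured 247, 211 and 262 CPM against 32.9, 22.8 and 34.5 CPM (3.00 ± 0.20). In all 3 genes the lowest halofuginone + Tg library exceeded the highest BtdCPU + Tg library by a wide margin. Some separation was set in advance, because largest rises were named only among genes whose groups did not overlap.

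Of 19 chemokine and cytokine genes on the list, 10 were higher and none lower, where 17.1% and 16.4% of all tested genes were. Their median was 0.70, and 6 were higher without the first BtdCPU + Tg library. Il1rl1, the receptor of IL-33 and the highest in level, measured 2422, 2207 and 1779 CPM against 980, 978 and 706 CPM (1.27 ± 0.17). Csf3 (1.95), Cxcl1 (1.68), Tslp (0.82), Ccl5 (0.75) and Ccl7 (0.72) were also higher, while Il6 (0.36) and Cxcl2 (0.36) were not called. Interferon-stimulated genes were called at shares below those of all tested genes. Of 18, none was higher and 1, the transcription factor Irf1, was lower (-0.70 ± 0.18). Their median was 0.00, and the replicate block gave 2 in each direction. Ddx58, the RNA sensor RIG-I and the highest of that list, differed by -0.08 (95% interval -0.39 to 0.24).

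Immediate early genes, the fast transcriptional output of growth factor signalling, and the phosphatases and Sprouty proteins that restrain ERK were higher almost throughout. The list was written with earlier results of these data known, so its counts may partly describe that choice. Of 27 members 22 were higher and none lower, where 17.1% and 16.4% of all tested genes were. The median was 1.12, and called differences ran from 0.35 to 2.39. Dusp1, a phosphatase that inactivates MAP kinases, measured 83.4, 66.9 and 80.0 CPM against 17.9, 14.7 and 11.4 CPM. BtdCPU + Tg overlapped both Tg alone and DMSO, and halofuginone + Tg lay 2.39 ± 0.19 above BtdCPU + Tg (edgeR adjusted p = 6.71e-11). Myc, the highest member, measured 609, 540 and 602 CPM against 377, 287 and 416 CPM (0.70 ± 0.19). Dusp5 (2.00), Spry2 (1.82), Ier3 (1.81), Jun (1.63), Fos (1.49), Klf6 (1.45) and the orphan receptor Nr4a1 (1.39) were higher too, whereas Junb (0.14), Egr2 (0.16), Ier2 (0.27), Spry1 (0.09) and Spry4 (0.57) were not called. With library size alone 21 were higher, and with the replicate block 23.

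**Figure D3:**
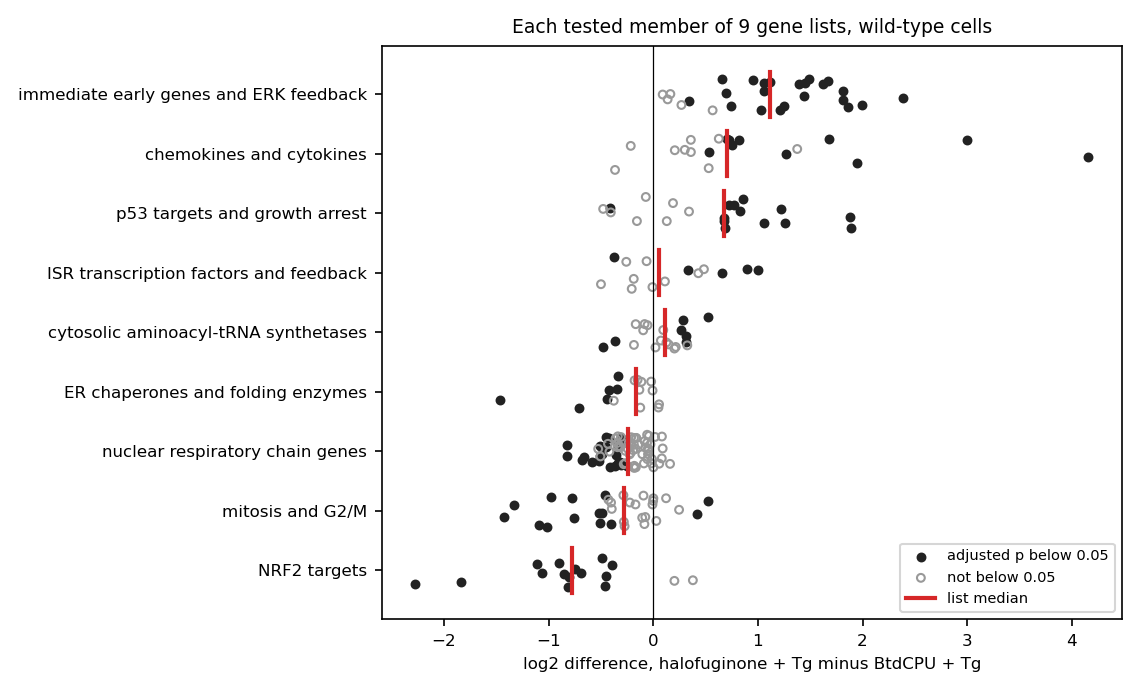
Log2 difference, halofuginone + Tg minus BtdCPU + Tg, of every tested member of 9 gene lists in wild-type cells. Filled points have an adjusted p below 0.05 and red bars are list medians. Immediate early genes (median 1.12) and cytokines (0.70) lie mostly to the right of 0, ISR transcription factors (0.05) and tRNA synthetases (0.11) straddle it, and NRF2 targets (-0.77) lie mostly to the left.

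Growth arrest genes called between the compounds were mostly higher with halofuginone + Tg, called mitotic genes mostly lower and called replication genes mostly higher. Of 20 p53 targets and growth arrest genes, 12 were higher and 1 lower, where 17.1% and 16.4% of all tested genes were, with a median of 0.68. Plk2, a stress-induced kinase and the highest of the list, measured 2081, 1985 and 2546 CPM against 922, 739 and 1103 CPM (1.26 ± 0.20). Gadd45g, a growth arrest gene, measured 258, 252 and 528 CPM against 75.4, 61.3 and 143 CPM (1.89 ± 0.33), and was higher in the third library of both compounds than in the others. Btg2 (1.88), Cdkn1a, the gene of the cell cycle inhibitor p21 (0.72), and Mdm2 (0.68) were higher, and Bax (-0.07) and Ccng1 (0.34) were not called. With the replicate block 3 members were lower. The 1 lower member, Cdkn1b (-0.41), was not called without halofuginone + Tg library 1 or 3 or BtdCPU + Tg library 2.

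Beside the mitotic and replication genes, 17.1% of all tested genes were higher and 16.4% lower. Of 32 mitotic genes, 2 were higher and 12 lower, with a median of -0.28, and the replicate block gave 3 and 18. Bub1b, a checkpoint kinase, measured 61.9, 61.1 and 71.98 CPM against 158, 176 and 189 CPM, with 191 to 236 CPM under Tg alone. All halofuginone + Tg libraries were below all others, a difference of -1.43 ± 0.13 (edgeR adjusted p = 6.11e-10). As the list's largest fall, Bub1b was named only from called members whose compound groups did not overlap. Over all tested genes, 40.5% had groups without overlap. Kif20a (-1.33), Cdc20 (-1.09) and Plk1 (-0.76) were lower, whereas Ccnb1 (0.00), Top2a (-0.08 ± 0.10) and Cdk1 (-0.28) were not called. Anln (0.41 ± 0.11) and Prc1 (0.53), genes of cytokinesis, were the 2 higher members, and neither was called without the third halofuginone + Tg library. Of 36 DNA replication genes, 13 were higher and 1 lower, with a median of 0.24; without the third BtdCPU + Tg library 8 were higher and 3 lower, and with the replicate block 4 were lower. Mcm3, a subunit of the replicative helicase, measured 432, 411 and 417 CPM against 285, 244 and 254 CPM (0.69 ± 0.10), and Pold1, the catalytic subunit of DNA polymerase delta, was the lower one (-0.73 ± 0.15).

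NRF2 targets, the antioxidant and glutathione genes, were lower with halofuginone + Tg with few exceptions. This list too was written with earlier results of these data known. Of 16 members 14 were lower and none higher, where 16.4% and 17.1% of all tested genes were. The median was -0.77, and Me1 (0.20) and Srxn1 (0.38) were not called. With the replicate block, and without the first BtdCPU + Tg library, 1 member was higher. Hmox1, heme oxygenase, measured 70.3, 78.0 and 46.1 CPM with halofuginone + Tg and 368, 338 and 234 CPM with BtdCPU + Tg. BtdCPU + Tg lay just below Tg alone (374 to 429 CPM; -0.35, not called), whereas the lowest halofuginone + Tg library lay within the DMSO range (43.3 to 47.5 CPM). The difference was -2.27 ± 0.17 (edgeR adjusted p = 1.73e-11). Gsta4, a glutathione transferase (-1.83), Gclc and Gclm, the subunits of the enzyme that limits glutathione synthesis (-0.90 and -0.81), and Nqo1 (-0.45) were lower. Txnrd1, thioredoxin reductase and the highest of the list, measured 391, 389 and 419 CPM against 563, 480 and 535 CPM (-0.40 ± 0.11), and Eid3 overlaps it. The antioxidant response element TGACNNNGC was found at 5 of 11 promoters of this list and at 12.5% of all promoters.

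Aryl hydrocarbon receptor genes went the other way. Of 6 members 5 were higher with halofuginone + Tg and none lower, where 17.1% and 16.4% of all tested genes were, with a median of 1.30. Cyp1a1, the receptor's classic monooxygenase target, measured 6.35, 5.28 and 12.1 CPM against 1.03, 1.68 and 1.48 CPM, a difference of 2.50 ± 0.46 (edgeR adjusted p = 8.52e-05). Tg alone stood at 5.60 to 7.74 CPM, so halofuginone + Tg overlapped Tg alone (0.21, not called) and BtdCPU + Tg lay below it (-2.29, adjusted p = 0.00713, a call lost under at least 1 alternative). Tiparp, a mono-ADP-ribosyltransferase that represses the receptor, measured 269, 196 and 403 CPM against 48.6, 50.3 and 72.7 CPM (2.34 ± 0.22), and 4931440P22Rik overlaps it.

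The matrix genes of these fibroblasts did not move as a block. Col1a1, the main collagen I chain, differed by 0.06 (95% interval -0.30 to 0.41). Of 16 collagen chains 5 were higher and 1 lower, where 17.1% and 16.4% of all tested genes were, with a median of 0.15. The replicate block gave 3 lower. Col8a1 was the most raised, at 213, 181 and 195 CPM against 88.9, 71.1 and 84.8 CPM (1.27 ± 0.13), and Col6a2 (-0.23 ± 0.09) was the lower one, kept its call without halofuginone + Tg library 1 and lost it without any 1 of the other 5. Of 25 matrix proteins and collagen modifiers, 7 were higher and 6 lower. Ctgf, a matricellular protein, measured 623, 458 and 850 CPM against 178, 91.9 and 209 CPM (2.01 ± 0.32), and P4ha2, a collagen prolyl hydroxylase, 19.7, 23.7 and 19.5 against 42.6, 39.99 and 37.8 CPM (-0.94 ± 0.12). Fn1, fibronectin and the highest of the list, differed by 0.55 ± 0.23 (edgeR adjusted p = 0.066) and was called with the replicate block (adjusted p = 7.18e-06).

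Most listed genes of the respiratory chain, ribosome and glycolysis were not called, and the called ones were mostly lower. Beside them, 17.1% of all tested genes were higher and 16.4% lower. Pfkm and Txnip differed more widely. Of 73 nuclear genes of the respiratory chain none was higher and 22 were lower, with a median of -0.24. The replicate block gave 39 lower, and 10 and 14 were lower without the third halofuginone + Tg and the second BtdCPU + Tg library. Ndufv3, a complex I subunit, measured 13.8, 16.6 and 11.5 CPM against 24.4, 27.7 and 22.1 CPM (-0.83 ± 0.13), while Atp5b, the highest of the list, differed by 0.06 (-0.10 to 0.22). Of 48 ribosomal protein genes 1 was higher and 14 lower, with a median of -0.22; the replicate block gave 28 lower, and 4, 7 and 6 were lower without halofuginone + Tg library 3, BtdCPU + Tg library 1 and BtdCPU + Tg library 2. Rps29 (-0.60 ± 0.21) and Rps15 (-0.58 ± 0.15) were among the lower ones. Rpl3, the higher one at 0.22 ± 0.07, kept its call without halofuginone + Tg library 3 and lost it without any 1 of the other 5. Of 21 glycolysis genes 2 were higher and 5 lower, with 10 lower in the replicate block and 8 without the third BtdCPU + Tg library. Pfkm, the muscle form of phosphofructokinase, measured 8.69, 11.4 and 9.07 CPM against 30.9, 30.8 and 25.2 CPM (-1.57 ± 0.13), and Senp1 overlaps it. Txnip, which restrains glucose uptake, measured 510, 488 and 579 CPM against 78.3, 140 and 73.6 CPM (2.43 ± 0.33), and its antisense neighbour Gm15441 differed by 2.44, so reads of the pair may not be separable.

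Of 30 sterol and fatty acid synthesis genes, 7 were higher, among them Idi1 (1.15 ± 0.24) and Insig1 (0.93), and 8 were lower, among them Ebp (-0.92 ± 0.13), beside 17.1% and 16.4% of all tested genes. The higher count was 4 without halofuginone + Tg library 1 or BtdCPU + Tg library 2 or 3, and the lower count was 4, 5 and 3 without halofuginone + Tg library 1, halofuginone + Tg library 3 and BtdCPU + Tg library 1. Among 17 heat shock chaperones 2 were higher, including the small chaperone Hspb1 (11.98, 8.67 and 14.99 CPM against 2.88, 2.65 and 2.82 CPM, 2.09 ± 0.21), and 2 lower, including Hsph1 (-0.61 ± 0.11); the replicate block gave 3 and 6. The higher count was 1 without halofuginone + Tg library 1 or BtdCPU + Tg library 2 or 3, and the lower count 1 without halofuginone + Tg library 1 or 2 or BtdCPU + Tg library 1 or 3. In the BCL-2 family, Mcl1, which protects from apoptosis, measured 165, 157 and 162 CPM against 75.1, 70.3 and 74.0 CPM (1.14 ± 0.09), and the pro-apoptotic Bok was lower (-0.63 ± 0.15), with 2 of 11 members called in each direction. The heat shock and BCL-2 counts were thus near or below the 17.1% and 16.4% of all tested genes.

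The widest differences in the lower direction were not in mRNAs. Rnr2 and Rnr1, the ribosomal RNAs encoded by mitochondrial DNA, measured 314, 283 and 220 and 59.6, 60.1 and 78.4 CPM with halofuginone + Tg. With BtdCPU + Tg, Rnr2 measured 2106, 2217 and 6721 CPM and Rnr1 measured 508, 474 and 1034 CPM. Rnr2 and Rnr1 were named among the largest falls, which were taken only from genes whose groups did not overlap (40.5% of all tested genes). The third BtdCPU + Tg library was the highest for both. Differences were -3.76 ± 0.31 for Rnr2 and -3.35 ± 0.25 for Rnr1 (edgeR adjusted p = 1.27e-10 and 1.26e-11), and without that library they were -3.00 and -2.90. Against the shared Tg libraries, Rnr2 differed by 2.95 with BtdCPU + Tg and -0.80 with halofuginone + Tg, and Rnr1 by 2.90 and -0.44. The -0.44 was not called, and the call of -0.80 was lost without the third halofuginone + Tg library or the first Tg library. The protein-coding mRNAs of mitochondrial DNA did not share this: of 13, none was higher and 2, ND3 and ND1, were lower, where 17.1% and 16.4% of all tested genes were. Their median was -0.20, and COX1 differed by -0.17 (95% interval -0.60 to 0.27). Neither ND3 nor ND1 was called without halofuginone + Tg library 3 or BtdCPU + Tg library 1 or 2, and the groups overlapped for both genes. Of the 13, 4 were lower without halofuginone + Tg library 1 or BtdCPU + Tg library 3, and 1 without halofuginone + Tg library 2. The labels mention both ribosomal depletion and mRNA selection, and the part of library preparation in the rRNA counts was not tested.

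**Figure D4:**
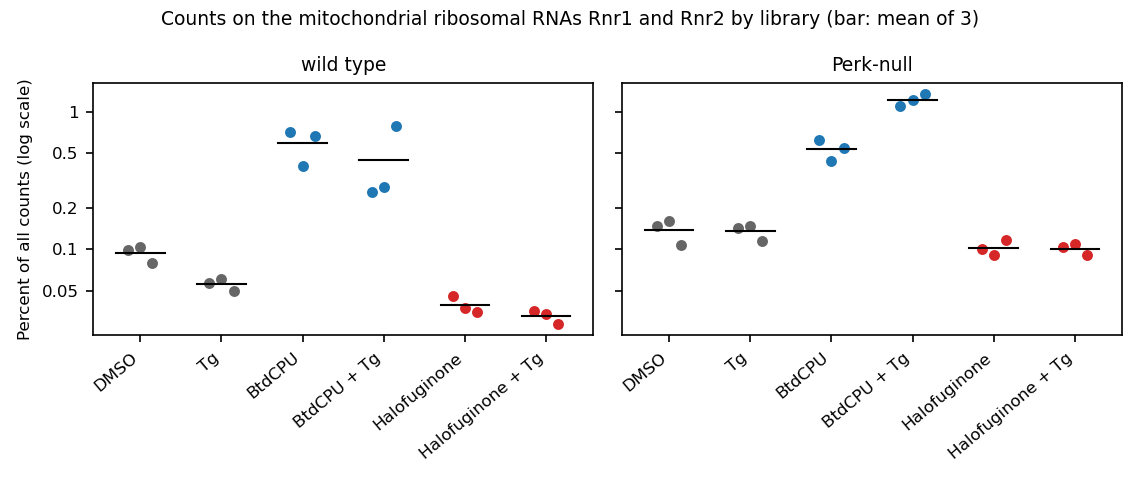
Percent of each library's counts on the mitochondrial rRNAs Rnr1 and Rnr2, on a log scale, for 6 treatments in wild-type (left) and Perk-null (right) cells. Points are libraries and bars are means of 3. Wild-type BtdCPU + Tg libraries hold 0.261% to 0.794% and halofuginone + Tg libraries 0.0287% to 0.0358%, and every BtdCPU library of either genotype lies above every library without BtdCPU.

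Outside the lists, the rule for large differences also named Stmn4, Lce1f, Aldh1a3 and 1810011O10Rik among the rises and Cbx2, Efna4, Cdc42ep2, Pik3c2b and Sapcd2 among the falls. Aldh1a3, a retinaldehyde dehydrogenase, measured 14.5, 8.86 and 10.5 CPM against 2.36, 1.41 and 1.48 CPM (2.69 ± 0.31). Stmn4, a stathmin family gene, measured 16.02, 16.5 and 12.1 against 1.87, 2.41 and 1.45 CPM (2.96 ± 0.29). With BtdCPU + Tg, Aldh1a3 overlapped Tg alone (0.07, not called) and Stmn4 was above it in every library by a margin that did not pass the test (0.96, adjusted p = 0.0971). Cbx2, a Polycomb subunit, measured 1.44, 1.98 and 1.05 against 11.6, 9.93 and 7.75 CPM (-2.71 ± 0.23), and Gm35829 overlaps it. Efna4, an ephrin ligand, measured 1.53, 1.84 and 1.502 against 12.3, 8.51 and 8.52 CPM (-2.59 ± 0.21). The rule itself required that the groups of all these genes not overlap.

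The same compounds without Tg, in other libraries, differed at more genes. Halofuginone alone and BtdCPU alone differed at 10339 genes (64.4%) in wild-type cells, and 4882 genes were called in the same direction in both comparisons, 90.7% of those under Tg and 47.2% of those without it, while 31 were called in opposite directions. The difference between the 2 comparisons itself was called at 4296 genes (26.7%; 13.7% with a positive and 13.0% with a negative gap), or 2575 when the fit held only the 4 groups. Il11 differed by 5.26 without Tg and 4.16 under it, and Lif by 4.96 and 3.00, and both gaps passed the test (-1.11 and -1.97, edgeR adjusted p = 0.00346 and 3.57e-08). Hbegf differed by 3.07 and 3.00, with no gap called (-0.07, 95% interval -0.60 to 0.45). Cytokines had a median of 2.97 without Tg (17 of 19 higher, where 32.4% of all tested genes were) beside 0.70 under Tg, NRF2 targets -1.09 beside -0.77, and ER chaperones -0.71 (14 of 16 lower, where 31.9% of all tested genes were) beside -0.16. Hspa5 was higher with halofuginone alone than with BtdCPU alone (1.06 ± 0.14) and did not differ under Tg by a margin that passed the test, a gap of -1.003 (adjusted p = 0.000362). Slco4a1, an organic anion transporter, was lower with halofuginone alone (-1.44) and higher under Tg (2.34), a gap of 3.79 (adjusted p = 1.39e-05).

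In Perk-null cells under Tg, 5874 genes (36.6%) separated the compounds. The same direction was called in both genotypes for 3005 genes, 55.8% of the wild-type and 51.2% of the Perk-null calls, and opposite directions for 139. The genotype difference of the compound contrast was called at 1458 genes (9.08%; 5.35% with a positive and 3.73% with a negative gap), at 3285 with the replicate block, and at 971 without the third wild-type halofuginone + Tg library. Il11 differed by 1.62 in Perk-null cells and 4.16 in wild type, a gap of 2.54 ± 0.30 (edgeR adjusted p = 1.69e-06). Lif went the other way, 3.78 against 3.00 (-0.78, adjusted p = 0.0145), a call lost without the first Perk-null BtdCPU + Tg library (adjusted p = 0.0552). Hbegf differed by 3.04 in Perk-null cells, Rnr2 by -3.62 and Hmox1 by -1.84, with no genotype gap called for any of the 3. Immediate early genes had a median of 1.41 in Perk-null cells (22 of 27 higher, where 17.9% of all tested genes were) and NRF2 targets -0.40 (10 of 16 lower, where 18.6% were). Of 16 ER chaperones, none was called higher and 6 lower in wild type. That lower count was 3 without the third wild-type halofuginone + Tg library and 2 with only the compared groups fitted. In Perk-null cells, 6 of the 16 were called higher and 1 lower (median 0.16). The mRNAs of mitochondrial DNA had a median of 0.80 in Perk-null cells, with 9 of 13 higher, beside -0.20 in wild type. The genotype difference of a list was not tested.

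**Figure D5:**
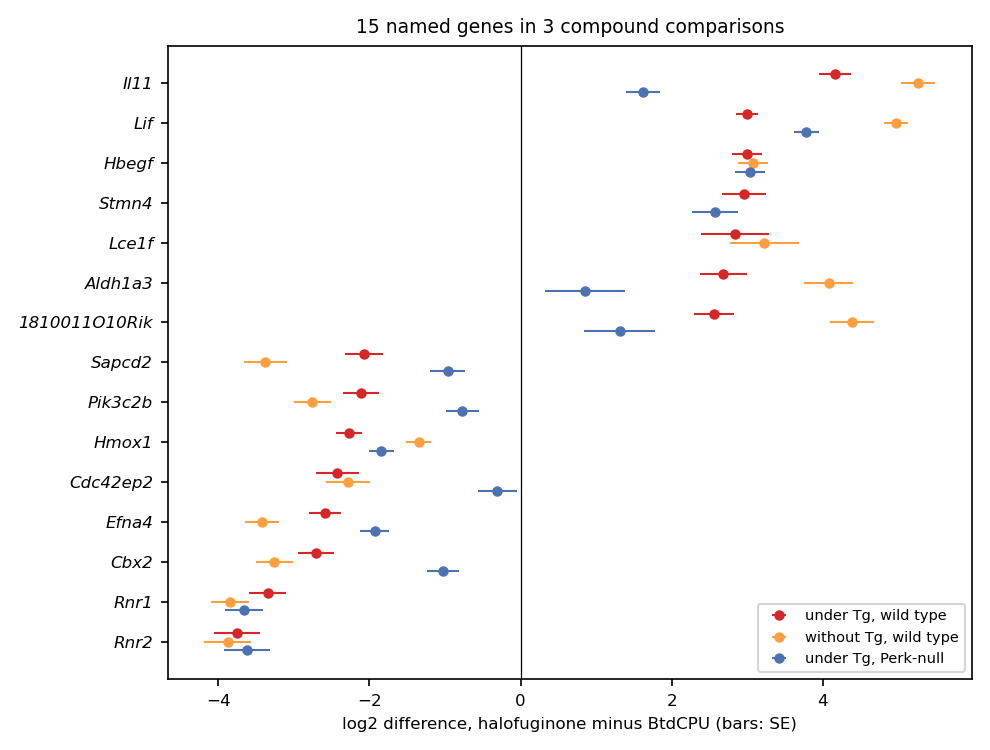
Log2 difference, halofuginone minus BtdCPU, of 7 of the largest rises and the 8 largest falls in 3 comparisons: under Tg in wild type (red), without Tg in wild type (orange) and under Tg in Perk-null cells (blue). Points are edgeR estimates and bars are SE. Rnr1, Rnr2 and Hbegf lie close together in the 3 comparisons, while Il11 is lower in Perk-null cells (1.62) than in wild type (4.16); Lce1f in Perk-null cells (0 counts in all 6 libraries) and Stmn4 without Tg (0 to 3 counts in the BtdCPU libraries) are not drawn.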

How the data were processed

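Bulk RNA-seq of 36 libraries (2 genotypes, 6 treatments, 3 replicates each) was deposited by the authors as 1 table. The authors deposited estimated counts per gene, one column per library, with no normalization applied, as the values show. In them 0.025 stands for 0 (50.6% of values), and fractions occur in 2.69% of the remaining entries. Per the submitters' processing notes, GRCm39 and DESeq were named, with no role given; the aligner, counter, annotation and use of strand are not given in the sources used here.

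Values were rounded, 27 entries named by a date number or without a name (0.206% to 0.278% of counts) were left out, and 39 symbols on 86 entries were summed. Library totals ran from 32454257 to 37178107 counts. With edgeR 4.0.16 in R 4.3.3 (limma 3.58.1), genes passing filterByExpr were scaled by TMM and fitted with 12 group means over all 36 libraries (robust quasi-likelihood, 24 residual degrees of freedom, common dispersion 0.0199). Genes were called at a Benjamini-Hochberg adjusted p below 0.05, and each difference is halofuginone minus BtdCPU. Libraries of 1 group differed beyond sampling noise (lowest chi-square per degree of freedom 9.06). Tested on simulated data for this comparison (15835 genes), 48%, 80%, 98% and 100% of genes changed 1.5-, 2-, 4- and 8-fold were called, and 0.0576% of unchanged genes. Only 50 genes were changed at each fold, all with mean counts of at least 50, and every other gene was held equal. No effect shared by replicate number was simulated. These rates therefore need not hold in the data, where 5382 genes were called.

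Named genes were the 8 largest rises and 8 largest falls (no overlap between groups, mean log2 CPM not under 2, more than 3 counts in each library of the lower group), each list's largest rise, largest fall and highest member, genes with extreme differences between contrasts, and preset readouts; some of these genes are not reported here. Each list's largest rise and fall were also taken only from called members whose groups did not overlap. The members and lists were chosen with earlier results of these data known. Same-numbered libraries of the 2 compared groups deviated together (correlations 0.173, 0.298 and 0.381, against -0.298 to 0.00112 for other pairs). Deviations from a group's own mean cancel, so positive same-number values force the others down and the gap is partly built in. The numbers, taken from the labels, were treated as pairs in a blocked fit, and the main fit did not use them. Alternatives were library size or RLE scaling, no filter, the block, DESeq2 1.42.0, a fit of the compared groups only, and leaving out each library. RefSeq for GRCm38.p6 was used only for names (29180 symbols matched), overlapping genes and promoter windows, and none of its coordinates was joined to the counts.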

Additional observations from a re-analysis of the deposited data

Results flagged for a closer look

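Of 31 genes examined, 13 differed in the compound contrast with and without Tg in wild-type cells and 8 between genotypes under Tg, by edgeR interaction terms. The shares over all tested genes were 26.7% and 9.08%. Some of the 31 were named for these gaps or for a large compound difference, so their counts describe the selection. With Tg minus without, the log2 gap was -1.97 for Lif, -1.83 for 1810011O10Rik, -1.39 for Aldh1a3, -1.11 for Il11, -1.003 for Hspa5, -0.92 for Hmox1, -0.64 for Dnajb9, 0.84 for Efna4, 1.31 for Sapcd2 and 3.79 for Slco4a1. It was -5.44 for Stmn4, -5.98 for Gm36182 and -6.12 for Gm35546. These 3 values depend on the prior count, because the wild-type BtdCPU libraries without Tg held 0 to 3, 0 to 6 and 4 to 10 counts, against 680 to 750, 618 to 1076 and 805 to 1403 with halofuginone. The call was lost without the first wild-type BtdCPU + Tg library for Aldh1a3 (adjusted p = 0.0748), without the second wild-type halofuginone + Tg library for Sapcd2 (0.0549) and with only the compared groups fitted for Hmox1 (0.0617). For Dnajb9 and Efna4 it was lost under several alternatives (0.052 to 0.123 and 0.0515 to 0.184).

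Wild type minus Perk-null, the gap was 2.54 for Il11, -0.78 for Lif, -0.97 for Dnajb9, -1.11 for Sapcd2, -1.34 for Pik3c2b, -1.68 for Cbx2 and -2.11 for Cdc42ep2. It was -5.03 for Gm36182, where Perk-null BtdCPU + Tg libraries held 0 to 4 counts, so this value too depends on the prior count. Sapcd2 lost its call under 6 of the leave-one-out fits (adjusted p from 0.0643 to 0.158) and Lif without the first Perk-null BtdCPU + Tg library (0.0552).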

How the results depend on the processing

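The count of genes separating the compounds under Tg in wild type (5382) was 4173 to 5184 on leaving out 1 library at a time and 4028 to 5681 under the other unpaired settings, and the replicate block, which uses the pairing of libraries by number, raised it to 6991. Without Tg, leaving out 1 library gave 9666 to 9981, and in Perk-null cells 4833 to 5263. The difference with and without Tg (4296) was called at 2575 genes with only the compared groups fitted and at 3638 to 4223 on leaving out 1 library. The difference between genotypes (1458) was called at 3285 genes with the replicate block and at 971 (without wild-type halofuginone + Tg library 3) to 1542 on leaving out 1 library. With scaling by library totals alone, 37.6% of those calls were higher against 58.9%, and the median of all genes moved to -0.13. The causes were not tested.

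No named gene reversed in any alternative. Of 73 named genes called in wild type under Tg, 59 were called in all alternatives and 14 were lost in some: Aars, Anln, Atf4, Col6a2, Creld1, Eif2ak3, Eprs, Gm35546, Hspd1, Mcm5, ND1, Rpl3, Slc1a5 and Wdr12. Another 5 became called in some. Beside the block calls given above, Fasn (adjusted p = 0.0402), Hsp90ab1 (0.000801) and Sqstm1 (0.0492) became called with the replicate block. Of 28 lists, the lower count moved by over 1.5 times in 13 with the block and in 13 without the third halofuginone + Tg library. Groups of 3 limit precision most for genes changed less than 2-fold.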

Other observations

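In wild-type cells under Tg, 17.1% of all tested genes were higher with halofuginone + Tg and 16.4% lower. Ribosome biogenesis and mitochondrial quality control genes were called at shares near or below these. The share of autophagy genes called lower was above 16.4%, though that count fell on leaving out 1 library. Of 16 autophagy genes 3 were higher with halofuginone + Tg and 5 lower; Atg12, which forms the conjugate that lipidates LC3, was higher by 0.56, Wipi1 was lower (-0.69), and the receptor Sqstm1 (0.33, edgeR adjusted p = 0.0558) was not called. Without the third BtdCPU + Tg library 2 of the autophagy genes were lower, and with the replicate block 5 were higher. Of 34 nucleolar genes 4 were higher, among them Wdr43 (0.55), and 2 lower, Wdr12 (-0.60) and Nop2 (-0.42), and the replicate block gave 6 in each direction. Wdr12 lost its call without halofuginone + Tg library 3 or BtdCPU + Tg library 1 or 2, and the higher count was 2 without halofuginone + Tg library 1 or BtdCPU + Tg library 2. Of 20 mitochondrial chaperones and proteases, Hspa9 (0.39) and Parl (0.24) were higher and 4 were lower, among them Hspd1 (-0.35) and its neighbour Hspe1 (-0.48). None of these 4 was called without the third halofuginone + Tg library or the first BtdCPU + Tg library, and 7 were lower with the replicate block.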
